A study of Caenorhabditis elegans with 2 samples.

Results

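Peaks of the posterior Hox protein PHP-3 that lie on the X chromosome of the nematode Caenorhabditis elegans, away from promoters and tRNA genes, are described here. A peak was kept when its summit, the position the list names within it, lay neither in a promoter nor within 300 bp of a tRNA gene. Promoters were taken as the stretch between 1000 bp before and 200 bp after the outermost 5′ end of any protein-coding gene. This left 467 of the 839 X peaks, out of 3559 peaks on all chromosomes. Of the other X peaks, 256 lay in promoters away from tRNA genes and 116 lay within 300 bp of a tRNA gene, 98 of these outside promoters.

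The peaks come from chromatin immunoprecipitation and sequencing (ChIP-seq) of whole L4 larvae, 48 hours old, of the strain RW12213. In this strain the allele st12213[php-3::TY1::EGFP::3xFLAG] III puts an EGFP tag on the php-3 gene at its own locus, made by CRISPR insertion, and an anti-GFP antibody recovered the chromatin. There were 2 biological replicates of this 1 strain and stage, grown from larvae that hatched after bleaching and were starved at L1, so no conditions could be compared. Whole animals mix all tissues, and which cells a peak comes from was not measured. Read depth is unknown.

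PHP-3 belongs to the posterior group of Hox proteins, homeodomain transcription factors that give cells along the body axis their identity. Proteins of this group prefer sites that begin with TTTA, and they often bind beside cofactors of the PBC and Meis families. In worms, introns and the sequence far upstream of genes hold many enhancers. The X chromosome also holds rex sites, where the dosage compensation complex, a condensin-like complex that lowers X expression in hermaphrodites, is loaded; the motif of these sites contains the letters GCGCAGG. Factors of the GATA family bind sites named for those letters, and among them ELT-2 controls genes of the intestine.

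Windows of 101 bp around the summits are shown first, because they hold the letters that the later sections count. Capitals mark posterior Hox words (TTTA, then C or T, then G or T, then A or G), GATA words (A or T, then GATA, then A or G) and the rex core GCGCAGG, each read on both strands. The windows are the plus strand of the RefSeq genome WBcel235, whose coordinates are those of ce11. They belong to the strongest peak, the strongest with none of the 3 in its window, a strong peak with both Hox and GATA words, and the strongest beside a microRNA gene. The window with none ends in cctgc, the first letters of the rex core read on the other strand (CCTGCGC). What lies past its edge was not examined.
psa-3 intron (chrX:15408768-15408868): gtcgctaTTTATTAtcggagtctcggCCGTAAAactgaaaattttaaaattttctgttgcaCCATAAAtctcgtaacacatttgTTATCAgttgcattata
W02H3.3, intergenic (chrX:11094131-11094231): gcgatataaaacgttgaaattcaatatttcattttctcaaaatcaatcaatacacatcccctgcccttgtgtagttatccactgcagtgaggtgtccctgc
M163.1, intergenic (chrX:14500813-14500913): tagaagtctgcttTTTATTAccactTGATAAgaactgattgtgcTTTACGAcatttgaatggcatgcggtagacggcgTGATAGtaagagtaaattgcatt
C46F2.1, intergenic, 169 bp from the microRNA gene cel-mir-784 (chrX:8074703-8074803): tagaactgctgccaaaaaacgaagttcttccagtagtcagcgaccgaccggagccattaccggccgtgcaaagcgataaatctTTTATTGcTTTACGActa

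The rex core stood in the window of 12 of the 467 members. For each, 1 match of the word and 11 bases to each side are shown, read on the strand that holds GCGCAGG, since the stretches share letters beyond the word. A window can hold more than 1 match: 15 matches lay within 50 bp of member summits, and the window of the mom-1 intron holds a second one that is not shown. Names are those of the gene with the closest protein-coding start, and the stretches are given in order of signal; the entry for hlh-29 stands for a pair of members whose stretches were identical.
F20B6.9 (chrX:4209256-4209284, minus): ttgccgctatcGCGCAGGgacacctcttt
cest-16, in an intron of mom-1 (chrX:6296537-6296565, plus): atttacatttgGCGCAGGgggtcaccata
gtr-1 (chrX:806663-806691, plus): gtgcgattatcGCGCAGGggtgtttgttg
F22H10.2 (chrX:16682089-16682117, minus): ggaacaccatcGCGCAGGaacattgggca
Y41G9A.17, first (chrX:2997113-2997141, minus): ttaaatttatcGCGCAGGgaggaagtagc
hlh-29 (chrX:17544526-17544554, minus, and chrX:17545705-17545733, plus): attccctcttcGCGCAGGattgttattct
T24D8.6 (chrX:2364889-2364917, minus): aaaataattaaGCGCAGGgatatatagta
col-185 (chrX:13514547-13514575, plus): atacctttatcGCGCAGGgatattgaaat
dpy-23 (chrX:4395604-4395632, plus): aaaggagacaaGCGCAGGgagaactggtg
C49F8.15 (chrX:13358811-13358839, minus): aaaagtgcaacGCGCAGGcgctgtgaaaa
Y41G9A.17, second (chrX:2997288-2997316, minus): gagatcgtatcGCGCAGGgaggaagtatg

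X peaks lay outside both promoters and the surroundings of tRNA genes about as often as autosomal peaks did. The share was 55.7% of 839 X peaks (exact Clopper-Pearson 95% interval 52.2 to 59.1) and 55.0% of 2720 autosomal peaks by the same rule (53.1 to 56.8). All such intervals cover the counting of peaks only, and neighbouring peaks are not independent. Per base that passes the rule, X carried 32.3 peaks per Mb over 14.5 Mb, against 23.4 per Mb over 64.0 Mb of autosomes. X was also the denser over all peaks, with 839 in 17718942 bases, against 2720 in 82553665 bases of autosomes. Neither difference was tested.

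Most members lay between genes or in introns. Intergenic summits were 203 (43.5%, interval 38.9 to 48.1) and intronic summits 172 (36.8%, 32.4 to 41.4). Coding exons held 48 (10.3%, 7.68 to 13.4), UTRs 22 (4.71%, 2.98 to 7.05) and non-coding RNA genes the remaining 22. The X sequence that passes the rule was 35.5% intergenic, 35.1% intronic, 21.5% coding exon, 4.35% UTR and 3.57% non-coding RNA gene. Coding exons thus held a smaller share of members than of sequence. The same was seen on the autosomes, where they held 13.0% of 1495 peaks and 26.5% of the sequence.

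Intronic members stood in long introns. The intron around a member had a median length of 1600 bp (quartiles 552 and 5172), while the 18803 introns of X protein-coding genes had a median of 61 bp. Introns over 1 kb held 105 of the 172 intronic members (61.0%); they are 6.37% of the introns and hold 51.6% of all intron bases, so by length the 2 shares lie closer. First introns held 56 of the 172, and the share of intron sequence in first introns was not computed. The median distance of a member to the nearest protein-coding 5′ end was 2261 bp (interval 2088 to 2469; range 201 to 17502), and 87 members lay over 5 kb away. Intergenic members were upstream of that gene in 136 of 203 cases (67%), and intronic members downstream in 138 of 172. Between genes, 44 lay between a pair of gene starts, 40 between a pair of gene ends and 119 between a start and an end. How the intergenic sequence itself divides among these was not computed.

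The authors' signal value of a peak, whose normalization is not stated, spanned a wide range among the members. It ran from 2.16 to 1053, with a median of 120 (interval 116 to 126) and quartiles of 97.3 and 169. Only 25 members exceeded 300, and 26 were under 50. Each of these 26 overlapped a stronger listed peak and had the same replicate signals as that peak, so it is not a separate measurement. In all, 56 members (12%) shared both replicate signals with an overlapping listed peak. By class the median signal was 128 in intergenic sequence, 121 in introns, 111 in UTRs and 96.2 in coding exons, and that of non-coding RNA genes was close to the intergenic one.

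Found in both replicates' own lists were 162 members (34.7%, interval 30.4 to 39.2), against 35.3% of all 3559 peaks, so the members stood near the background of the whole list. Replicate 1's list alone held a further 46 and replicate 2's a further 93, which leaves 166 (35.5%) found in neither list. Those in both had a median signal of 193 and those in neither 95.9. Signal and own lists come from the same animals, so this relation is partly built in. The share in both was 54.5% in non-coding RNA genes, 41.4% in intergenic sequence, 30.2% in introns, 22.7% in UTRs and 18.8% in coding exons. Among X promoter peaks it was 42.2% and among autosomal peaks outside promoters 32.4%.

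**Figure D1:**
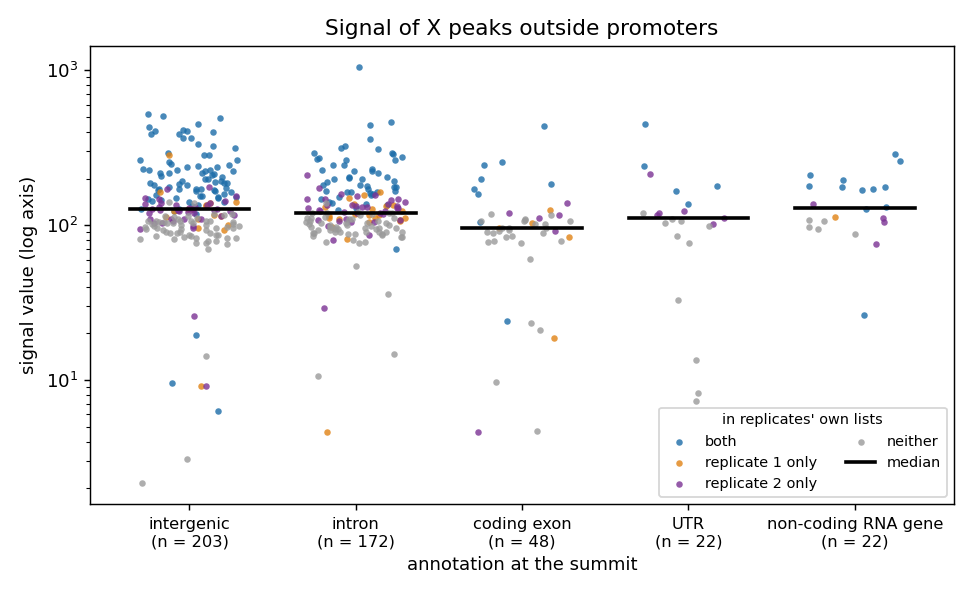
Signal value (log axis) of the 467 X peaks outside promoters by the annotation at the summit; each point is a peak, its colour gives the replicates' own lists that hold it, and bars are medians. Peaks in both lists fill the upper range in all classes, the coding exon median is the lowest at 96.2, and the scattered points under 50 are the 26 peaks that overlap a stronger one.

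Replicate signals could be paired for 461 members. The median was 56.9 in replicate 1 and 68.4 in replicate 2, and replicate 2 was the higher at 310 members. Across these peaks, Spearman's rho was 0.599, and Pearson's r of the log2 signals was 0.722. They had already passed a limit on reproducibility, and peaks are not independent replicates, so both values only describe the list.

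**Figure D2:**
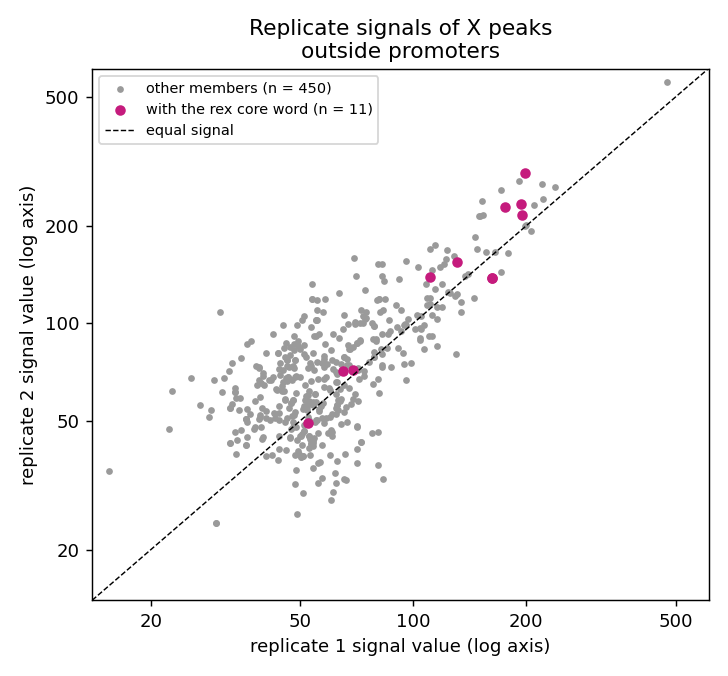
Signal of each member in replicate 1 and replicate 2 (log axes; 461 paired members; dashed line, equal signal), with members that hold the rex core word coloured. Points spread widely around 50 to 70 and tighten along the line at high signal; the pair at Y41G9A.17 has the same replicate signals and overlaps at a single coloured point.

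The strongest members belonged to genes of many kinds. The peak in an intron of psa-3, which encodes a Meis-family homeodomain protein of the tail's T lineage, had a signal of 1053 (475 in replicate 1 and 556 in replicate 2). The second, 4005 bp downstream of the 5′ end of W02H3.3, had 521 (238 and 263). The third, upstream of F20B6.9, had 504 (199 and 290), and the fourth, 2961 bp from the start of M163.1, had 495 (220 and 269). A second strong peak, 1405 bp from that start, had 367 (151 and 214). In both replicates psa-3 stood well above the others, which did not keep the same order in the pair of replicates.

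Enzyme genes followed. An intron of asp-14, of the aspartyl protease family, held a peak of 465 (replicates 191 and 275). A coding exon of pks-1, which encodes a polyketide synthase, held the strongest exonic peak, at 436 (171 and 258); its nearest 5′ end, that of C41A3.2, lay 15187 bp away. The strongest UTR peak was in B0403.3, at 447 (221 and 242). Near the 1000 bp limit, 1008 bp upstream of the F-box gene fbxb-58, a peak had 449 (210 and 232).

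Genes of receptors and signalling were also represented. A peak of 441 (replicates 194 and 233) lay in an intron of mom-1, which encodes a Porcupine-type protein needed to make active Wnt ligands. A peak of 428 (175 and 229) lay 3916 bp downstream of the start of gtr-1, a G protein-coupled receptor gene, and one of 404 (198 and 200) lay 3269 bp upstream of the neuropeptide receptor gene npr-18. At the nuclear hormone receptor gene nhr-28 the peak was 8278 bp upstream, at 400 (200 and 201). The remainder of the 20 strongest in both lists were near F22H10.2 (412), K02D3.1 (403), C46F2.1 (389), ZK899.6 (388), T27A8.7 (367), C12D12.1 (362) and F55G7.5 (332). The strongest in a non-coding RNA gene, at 290 (111 and 170), was in linc-112, 5694 bp upstream of lin-18, which encodes a Ryk-type Wnt receptor.

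Members gathered in groups at some loci. Of the 467, 175 (37.5%) had another member within 2 kb, and they formed 78 clusters of up to 5. The median gap between neighbours was 17715 bp. The cluster of 5 spanned 2676 bp downstream of C30E1.4, with signals of 131, 172, 176, 180 and 246, and all 5 were in both own lists. The members at 131 and 176 there have the same replicate values (81.2 and 119).

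By nearest 5′ end, 332 genes were assigned and 27 of them had 3 or more members. These counts include the members under 50, which repeat the replicate signals of a stronger peak and are not separate measurements. Several encode transcription factors. The MAD-like bHLH gene mdl-1 had 6 members, at 97.1 to 206, of which 3 lay in introns of the neighbouring gene abts-4 and 4 were in both lists. The forkhead gene fkh-9 had 5, the strongest in its own intron at 311 (replicates 171 and 144). The ETS-family gene ets-4 had 5, led by one 1328 bp upstream at 282 (140 and 142). The fifth of those at ets-4, at 4.70, repeats the replicate signals of another. The Max-like bHLH gene mxl-3 had 4 at 7.29 to 105, none in both lists. The Schnurri-type gene sma-9, which acts in the BMP-like pathway of body size, had 4 at 9.14 to 157.

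Other genes with several members have a range of roles. ZK470.4 had 6 at 4.6 to 131, all in introns of ZK470.2 and none in both lists. Y71H10B.1 had 4 (86.6 to 226), as did tag-343 (108 to 170). Of the genes with 3, mob-2, a Mob-family kinase regulator gene, had signals from 114.8 to 293, all in its introns and all with a posterior Hox word. Those of the H3K27 demethylase gene jmjd-3.1 ran from 14.4 to 314 and those of the AMP kinase subunit gene aakg-3 from 86.6 to 205. The mitophagy gene dct-1 had 9.1 to 177 and the autophagy gene atg-2 6.31 to 155. Those of the apical junction gene ajm-1 ran from 33 to 107, with none in both lists. The rest with 3 were M163.1, sdz-19, W05H9.4, T24D8.6, bcat-1, nfki-1, R03E9.2, H18N23.2, spp-9, F08C6.18, tps-1 and ivns-1.

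Along X, members were spread over the chromosome. In 10 segments of equal length the count ran from 26 in the first to 61 in the eighth, or 17.5 to 42.5 per Mb of sequence passing the rule. At the edges of the rule, the innermost members were 1006 bp upstream of T24D5.4 (signal 99), 201 bp downstream of the start of C15H9.4 (96.3) and, 471 bp from a tRNA gene, near C03A3.1 (93.8). Just outside were peaks 996 bp upstream of Y102A11A.2 (149), 178 bp into T01C8.3 (90.7) and, 255 bp from a tRNA gene, a strong peak of 405 in the sequence upstream of xol-1, the gene that sets sex from the X signal.

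GATA words stood in a larger share of member windows than of windows beside them, a difference that was not tested. They were found in the window of 228 of 467 members (48.8%, interval 44.2 to 53.5), in 22.9% (20.2 to 25.8) of 925 windows beside them and in 21.1% of all 143186 windows of the same length on X that pass the rule. Windows beside the members were centred 400 bp to each side, away from listed summits. The word TGATAA made most of this: it stood in 35.3% of members and 9.51% of windows beside them, whereas AGATAA stood in 10.5% and 7.35%. Among X promoter peaks 52.3% (46.0 to 58.6) held a GATA word, and among autosomal peaks outside promoters 40.2% (37.7 to 42.7). Introns held it in 97 of 172 members (56.4%), intergenic sequence in 93 of 203 (45.8%), UTRs in 16 of 22 and coding exons in 16 of 48.

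Posterior Hox words, the kind that proteins of this group prefer, were less common. They stood in 126 members (27%, interval 23 to 31.3), in 16.3% (14 to 18.9) of windows beside them and in 19.4% of all X windows. The narrower words TTTATGA and TTTATGG stood in 9.21% of members and 4.97% of windows beside them. Autosomal peaks had posterior Hox words in 23.9% and X promoter peaks in 27.7%. A GATA word can overlap a posterior Hox word, and TTTATTA also holds the general homeodomain core TAAT on the other strand. That core was in 57.2% of members and 66.2% of windows beside them, and TATAAA in 9.21% and 12.8%.

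Members with posterior Hox words had higher signal values, a difference that was not tested. Their median was 136 (interval 126 to 159), against 114 (110 to 120) for members without, and 62 of 126 (49.2%) were in both own lists, against 29.3%. By quartile of signal, from weakest to strongest, posterior Hox words stood in 19.7%, 17.9%, 27.6% and 42.7% of members and GATA words in 33.3%, 49.6%, 57.8% and 54.7%. With a GATA word the interval of the median signal was 121 to 135 and without one it was 106 to 119. The 74 members with both kinds had a median of 141 (128.9 to 181), and the 187 with neither 110 (105 to 118).

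Base composition moved with these counts. Members held 40.6% GC (SD 8.82), windows beside them 34.7% (SD 8.36), and the strongest quartile 38.7%. Within windows of 30% to 40% GC, GATA words stood in 62.7% of 204 members and 25.4% of 390 windows beside them, and posterior Hox words in 34.3% and 15.4%. Within 40% to 50% GC the shares were 40% of 150 and 16.4% of 177 for GATA, and 18.7% and 5.08% for posterior Hox. The shares of members were the higher ones in both classes.

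**Figure D3:**
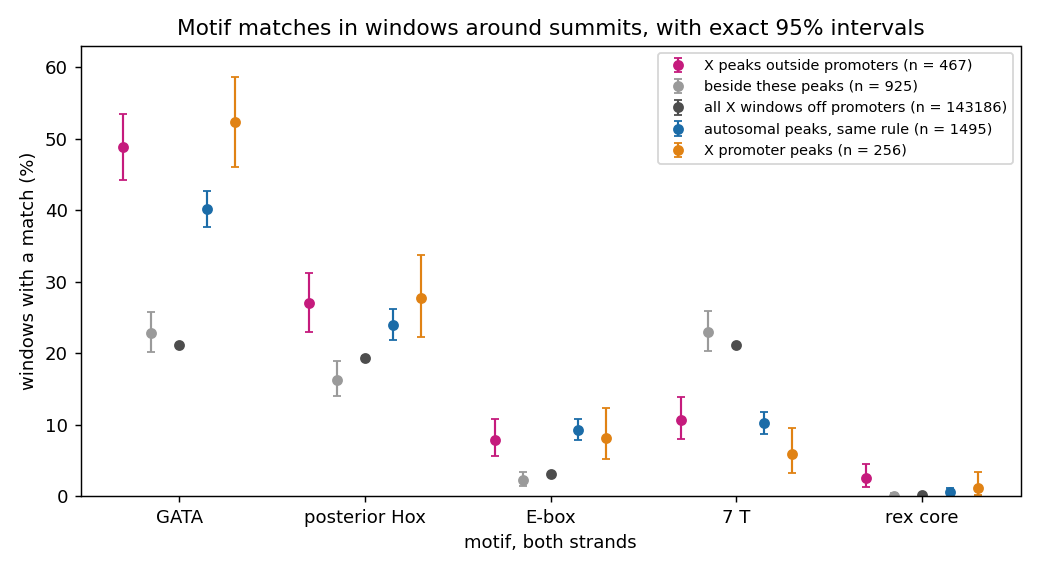
Share of 101 bp windows with a match to 5 motifs, with exact 95% intervals, around members, beside them, over all X windows that pass the rule, and around autosomal peaks outside promoters and X promoter peaks. GATA stood at 48.8% in members and 22.9% beside them, and runs of 7 T went the other way, at 10.7% and 23%.

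Matches gathered near the summit. In bins of 25 bp, GATA words were centred in 15.4% to 18.8% of members within 50 bp of the summit and in 4.28% to 8.35% beyond 400 bp. Posterior Hox words peaked at 10.1%, in the bin 50 bp before the summit, and runs of 7 T fell to 1.93%. Other counts were smaller. The E-box words CACGTG and CAGCTG stood in 37 members (7.92%, interval 5.64 to 10.8) and in 2.27% of windows beside them, and GAGAGAG in 17 (3.64%, 2.13 to 5.76) and 1.51%.

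**Figure D4:**
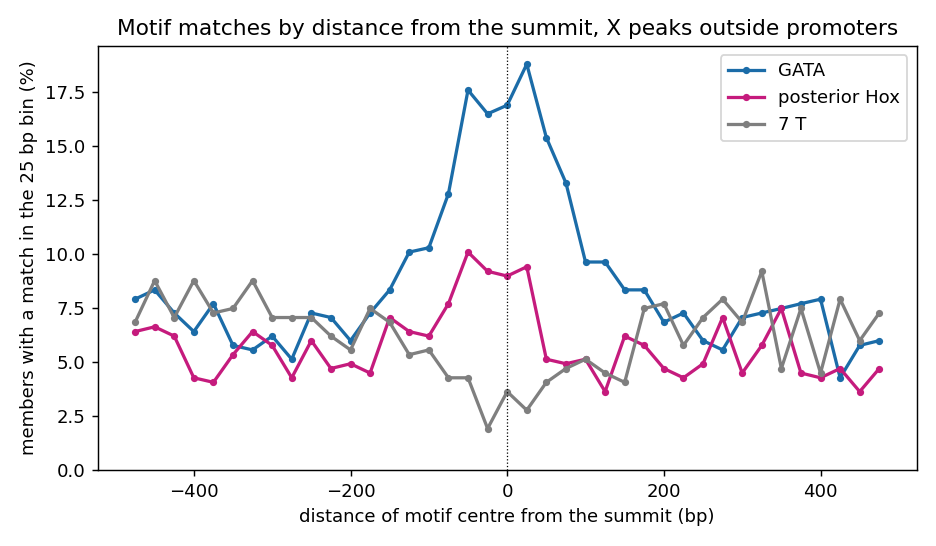
Share of the 467 members with a motif centred in each 25 bp bin, by distance from the summit along the plus strand. GATA reaches 18.8% and posterior Hox 10.1% near the summit, where runs of 7 T are at their lowest, 1.93%.

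The rex core word, in 12 members (2.57%, interval 1.33 to 4.45), was in 0 of 925 windows beside members (upper bound 0.398%) and in 0.181% of all X windows that pass the rule. Autosomal peaks by the same rule had it in 9 of 1495 (0.602%, 0.276 to 1.14), and autosomal windows overall in 0.183%. The intervals for X and autosomal peaks do not overlap, but the difference was not tested. The 12 members are not all independent: a pair among them shares its replicate signals, and another pair has identical stretches around the core. Intervals with each such pair counted once were not computed, so whether they would still lie apart is not known. Of the X promoter peaks 3 of 256 had the rex core word (1.17%, 0.242 to 3.39), an interval that overlaps that of the members. Positions of known rex sites were not used here, so whether these members lie in them was not examined.

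Most of these 12 members were among the stronger ones. By quartile of signal, from weakest to strongest, they numbered 1, 1, 3 and 7. Their median signal was 270 (interval 135 to 428), against 119 for the other 455, and 10 were in both own lists. At F20B6.9 the signal was 504, at mom-1 441, at gtr-1 428, at F22H10.2 412, and at Y41G9A.17 322 and 69.7, the second of which shares its replicate signals (162 and 138) with the first. The others were at hlh-29 (284 and 142), T24D8.6 (256), col-185 (147), dpy-23 (135, found in replicate 2 alone at 76.7) and C49F8.15 (115.3). Of the 12, 9 were intergenic and 3 intronic, and their GC content averaged 45%. In the printed stretches the base directly before the core was C at 9 of 12 and the one before that T at 9 of 12, and the base after the core was G at 8 of 12. The members were picked by a core within 50 bp of the summit, so the largest distance of its centre, 44 bp, was limited by that window. In the 25 bp bins centred 50 and 75 bp after the summit the word stood in 7 and 0 members. In those centred 50 and 75 bp before it, the counts were 2 and 4. Bins centred at 50 bp reach past the window, so a match there need not belong to the 12.

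The longer word TCGCGCAGG was counted after these stretches had been seen. It stood in 9 members, in 1 of them (the mom-1 intron) at the second match, which is not among the stretches shown. It stood in 0 of 925 windows beside them, in 2 of 256 X promoter peaks and in 1 of 1495 autosomal peaks outside promoters. On X it occurred 41 times at positions that pass the rule, and 11 of these lay within 50 bp of a member summit; of the 290 such positions of GCGCAGG, 15 did. The members at hlh-29, of the REF-1 family of bHLH genes, lie 1176 bp apart and share a run of 78 bp on opposite strands, although for 0 of the 467 members the whole 101 bp window occurs again in the genome.

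Of 2731 X protein-coding genes, 363 (13.3%, interval 12 to 14.6) had a member in their body or as the nearest 5′ end. These genes were longer than the rest (median body 3433 bp against 2414 bp), and the part of gene length in the shares of the lists was not tested. Nuclear hormone receptor genes had 11 of 23 with a member (47.8%, 26.8 to 69.4), heterochronic genes 4 of 8 (50%, 15.7 to 84.3) and intestinal genes 5 of 13 (38.5%, 13.9 to 68.4), with median bodies of 4483, 6383 and 4100 bp, against 2548 bp for all X genes. Differences from the 13.3% were not tested.

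The receptor genes with the strongest members were nhr-28, given above, nhr-14 (240, replicates 108 and 132), nhr-27 (225, 82.5 and 152) and nhr-3 (197, 95.8 and 98.4). Each of these 4 lay in both own lists. At the other receptor genes, the strongest member of 194 was also in both and that of 136 in replicate 2 alone. Those of 98.1 to 114 were in neither list. Heterochronic genes, which time larval stages, included alg-1, an Argonaute gene (177, replicate 2 alone), the nuclear protein gene lin-14 (161, 91.3 and 83.9), the steroid receptor gene daf-12 (158, replicate 2 alone) and the amyloid precursor-like gene apl-1 (116, neither list). lin-14 carried 4 members, of which 2 lay nearer the start of spp-9. Intestinal genes included the protease gene asp-3 (143, replicate 2 alone) and the GATA factor gene elt-2 (127, 57.8 and 77.8, 1688 bp upstream and in both lists). They also included asp-4 (120, replicate 2 alone) and pbo-4 (119, neither list), a sodium-proton exchanger gene. A further one, vit-4, a yolk protein gene, had 111 in a UTR of rgs-7, in replicate 2 alone.

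Homeobox genes had 3 of 28. Beside psa-3 these were ceh-60, a PBC-class gene (183, replicates 107 and 83, in its intron and in both lists), and dve-1 (134, replicate 1 alone). Wnt genes had 2 of 5, mom-1 and lin-18, and tail and T lineage genes 1 of 5, psa-3. Neuropeptide genes had 4 of 34, nlp-19 (119), flp-19 (118), nlp-76 (92.7) and nlp-2 (83.4), none in either own list. The member at nlp-19 is the same peak as that given above for pbo-4. Receptor and channel genes had 7 of 61, led by the calcium channel gene unc-2 (229), kqt-2 (214), twk-26 (180) and gbb-1 (118). Muscle genes had 2 of 14, the sarcoglycan gene sgca-1 (269, 145 and 120) and the actin gene act-4 (103). Collagens had 2 of 27, col-185 (147) and col-184 (79.4), and axon guidance and adhesion genes 1 of 23, the syndecan gene sdn-1 (96.3). The 6 X signal and dosage compensation genes and the 2 epidermal transcription factors had none. A peak of 405 upstream of xol-1, which is in the first of these lists, was left out by the tRNA limit.

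**Figure D5:**
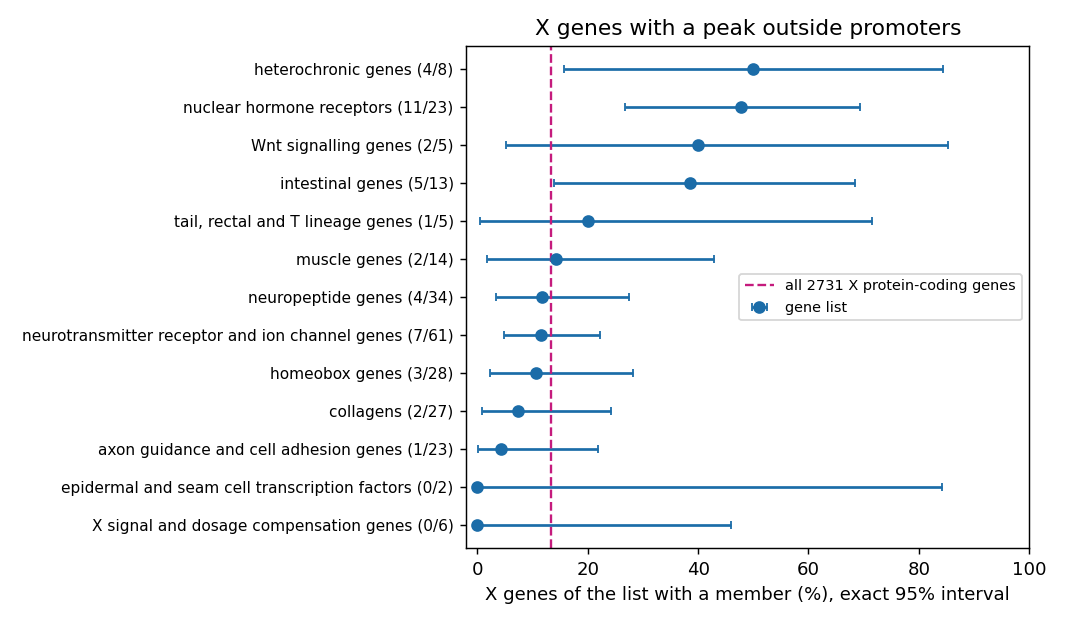
Share of the X genes of each list with a member, with exact 95% intervals and the number of genes beside each name; the dashed line is the 13.3% of all X protein-coding genes. Only the lists of nuclear hormone receptors, heterochronic genes and intestinal genes have intervals wholly above the line. The median gene bodies in these lists are also longer than among all X genes, and no difference was tested.

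Non-coding RNA genes lay near some members. Within 300 bp of a member summit lay a microRNA gene in 6 cases (1.28% of members, where 0.238% of the sequence passing the rule lies as near), a lincRNA gene in 6 (1.28% against 0.393%) and a snoRNA gene in 2 (0.428% against 0.131%). Genes annotated only as ncRNA lay as near in 62 cases (13.3% against 7.27%). Other classes went the other way, with pseudogenes near 0.642% of members against 2.93% of the sequence, piRNA genes near 0.214% against 0.55%, and antisense RNA genes near none against 0.0946%; none of these differences was tested. The microRNA cases were cel-mir-784 (389, replicates 152 and 239), cel-mir-54 (210), cel-mir-56 (121), cel-mir-239b (105), its neighbour cel-mir-239a and cel-mir-74 (94.0). Of these only cel-mir-784 was in both own lists. The members at cel-mir-54 and cel-mir-56 both lie in an intron of F09A5.3, and those at cel-mir-239a and cel-mir-239b lie side by side.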

How the data were processed

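ChIP-seq peak lists of 2 biological replicates, which form 1 group, were analysed. Per the file listing, the authors deposited them on ce11. No aligner or caller, nor a version of either, is given in the sources used here, and the control experiment that the labels name was not analysed here. The signal value of each peak is the authors' own, as deposited, and its normalization is not stated. The authors' score, as deposited, is scaled from the irreproducible discovery rate and is at least 830 in the lists used. Members came from the larger series-wide thresholded list. The conservative list, and each replicate's own list, served as alternatives. A replicate's signal at a member is the highest of any peak of its ranked list that overlaps by at least 1 bp, so neighbouring members can share it.

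Genes came from Ensembl release 115 and sequence from RefSeq WBcel235; no listed peak ended beyond its chromosome. Location classes and motif search were checked on simulated data with known answers. Scripts ran under Python 3.11.15 with scipy 1.17.1 for intervals, pandas 2.3.3 and numpy 2.4.6 for tables, and matplotlib 3.10.9 for plots. No test was run: intervals are exact, at 95%, and reflect only how many peaks or genes were counted. Genes were named where they had 1 of the 20 strongest members in both own lists, at least 3 members, up to 4 of the strongest members of a gene list, the strongest of a location class, or a member at an edge of the rule; genes near the rex core or a microRNA gene were named beyond that rule, after their values were seen. The members, motifs and lists were chosen with earlier results of these data known. Leaving out peaks of signal under 50 was chosen after seeing the data. Depth is unknown.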

Additional observations from a re-analysis of the deposited data

Results flagged for a closer look

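Ranked peaks with a score at least as high as the lowest of the list numbered 3635, and 76 of them are not in it. Of those, 11 lay on X and passed the same rule as the members; they are the signal in data outside the comparisons. The strongest lay upstream of Y7A5A.7, with a signal of 3411 (replicate 1 1989, replicate 2 1658), which is above every member. A second near that gene had 537 (325 and 241). The others were near R57.2 (906, replicates 494 and 429), Y102F5A.1 (453), elk-2 (355), B0403.6 (336), ZK380.2 (157), fbxa-221 (132), C04B4.6 (97.8) and ZK380.4 (86.9 and 75). Why they are absent from the list was not tested.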

How the results depend on the processing

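In all, 109 alternatives were computed; 71 stayed within the interval of the reported value and 38 did not. For none of these was the cause tested beyond what the setting itself changes. With peaks above the median signal, the share of X peaks that pass the rule was 50.8%, that of intergenic members 50.2%, that in coding exons or UTRs 6.99%, that in both own lists 67.2%, that with a posterior Hox word 35.4%, with a GATA word 56.8% and with a neighbour within 2 kb 20.1%, and the median signal was 170.0. A 500 bp upstream limit gave 62.9% passing and a median distance of 2008 bp. A limit of 2 kb gave 45.9% and 2697 bp, with 42.3% of members in introns and 36.1% intergenic. Without the tRNA limit, 67.3% of X peaks were members and 43.7% of these held a GATA word. With overlap of 50% of both intervals, 26.8% were in both own lists. Windows of 25 bp to each side held posterior Hox, GATA and GAGA words in 15%, 28.7% and 1.71% of members, and windows of 100 bp in 43%, 70% and 6.21%. Within 1 kb, 25.7% had a neighbour, and within 5 kb 54.8%; with peaks under 50 left out, a setting chosen after seeing the data, 30.6% had one within 2 kb.

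With 1 replicate's own list in place of the joint list, that is without replicate 1 or without replicate 2, the share of X peaks passing the rule was 50% to 54.1%, the intergenic share 46.6% to 49.3%, the coding exon and UTR share 10.7% to 12.4%, the share in both lists 61.7% to 74.9%, the median signal 79.7 to 88.1, the posterior Hox share 32.3% to 32.6%, the GATA share 51.6% to 54.5% and the share with a neighbour 27% to 31.2%. Members taken from an own list overlap that list by definition, so the share in both lists is then the share in the other replicate's list. Their median is of 1 replicate's signal values and not of the joint list's. Both are still counted among the values outside the interval. No paired analysis was possible because there is 1 group. The input control was not used here and read depth is unknown, so local background at a peak was not examined, and with 2 replicates of 1 strain and stage no spread between conditions can be given.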
